A study of Mus musculus with 10 samples.

Results

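Genes of the tumour necrosis factor (TNF) superfamily were followed in mouse Th17 cells, a class of helper T cell that makes IL-17, with and without the compound TMP269. Members were the genes whose symbol starts with Tnfsf or Tnfrsf, together with Tnf, Lta, Ltb, Ltbr, Cd40, Cd40lg, Cd27, Cd70 and Fasl. This took 40 of the 17493 genes of the deposited table, 17 ligands and 23 receptors. The TMP269 group held 2 RNA libraries, and the DMSO group, which received the solvent and served as control, held 2 libraries. TMP269 is a small-molecule inhibitor of class IIa histone deacetylases such as HDAC4 and HDAC7. It was added before harvest, and the sources used here state neither dose nor exposure time. In both groups the cells were naive CD4+ T cells from the spleen of C57BL/6 mice, activated on plates through CD3 and CD28 with IL-6 (20 ng/mL) and TGF-beta (2.5 ng/mL), and the cultures lasted 48 to 72 h. The labels name no allele in either group, although the table heads its DMSO columns WT. They also name no step that sorts the cells after culture. Chromatin immunoprecipitation libraries of the series are not analysed here.

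TNF superfamily ligands are made mostly as trimers on the cell surface, from which some are cut free. Their receptors fall into kinds: those with a death domain, such as TNFR1, FAS and DR5, can start cell death, those that bind TRAF adaptors switch on NF-kappaB and MAP kinases, and decoys bind ligand without signalling. In T cells, receptors such as OX40, 4-1BB, CD27, CD30 and GITR act as costimulators, while T cells themselves present ligands such as CD40L, FASL, LIGHT and lymphotoxin to other cells.

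Values are normalised reads, that is, the reads of a gene in a library divided by the size factor of that library. Libraries held 20007042 to 25321455 reads. Genes were tested with limma on log2(value + 1) where at least 2 libraries reached a value of 10, and calls were made at an adjusted p (Benjamini-Hochberg) under 0.05 over all 12535 tested genes. Fold changes are TMP269 over DMSO on this scale, which understates changes of low genes. Each ± on a log2 fold change is limma's moderated standard error, with 2 libraries per group. Its variance is shared in part across genes, so it is not the spread of that gene's own libraries alone. T cell markers were present in every library (Cd3e at 4428 and 4776 normalised reads with TMP269 and at 4097 and 4821 with DMSO). Of 5 Th17 marker genes, 0 rose with TMP269 and 3 fell (Il17a, Il17f and Ccr6), a called share of 60.0% beside 27.5% of all tested genes. Il17a was at 750.4 and 786 with TMP269 against 1888 and 1949 with DMSO. The 45S ribosomal RNA (Rn45s) took 0.716% and 1.12% of TMP269 reads and 0.836% and 2.20% of DMSO reads, and DMSO replicate 2 stood apart in this. Levels of different genes are not compared, because no transcript lengths were used.

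With TMP269, 11 of the 34 tested members rose and 3 fell, while 20 were not called. The ligand genes Tnfsf4, Cd70, Tnfsf8 and Tnf rose. Among the receptors, Tnfrsf11b, Tnfrsf26, Tnfrsf10b, Tnfrsf23, Ltbr, Tnfrsf14 and Cd27 rose, and Tnfrsf8, Tnfrsf13c and Tnfrsf9 fell. The called members were 41.2% of those tested, beside 27.5% of all tested genes. In edgeR's quasi-likelihood test on recovered reads the same number of members passed, 14, beside 27.2% of all tested genes. Calls upward made up 12.8% of all tested genes and calls downward 14.7%. Of the 6 members that rose at least 2-fold, 3 were ligands (Tnfsf4, Cd70 and Tnfsf8) and 3 were receptors (Tnfrsf11b, Tnfrsf26 and Tnfrsf10b), and 0 members fell that far. Called changes of at least 2-fold made up 3.77% of all tested genes, with 2.42% higher and 1.35% lower. The groups did not overlap in any of the 14 called members, which adds little to calls made on the same values. Over all 34 tested members, both TMP269 libraries lay above both DMSO libraries in 19 and below them in 8, and the same held for 32.6% and 34% of all tested genes (66.6% in all). Tnfsf15 and Tnfrsf11b reached the value of 10 only in the TMP269 libraries and so entered the test through that group alone. Tnfrsf11b is nevertheless counted among the 14 called members, the called receptors and the 6 members that rose at least 2-fold.

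By kind, 4 of 13 tested ligands were called, all higher, a share of 30.8%. Among all tested genes 27.5% were called in either direction, 12.8% higher and 14.7% lower. Among 21 tested receptors, 7 rose and 3 fell, a share of 47.6%. The median log2 fold change was 0.40 for the ligands, 0.09 for the receptors and 0.00 for all tested genes, and no test compared these lists. Without DMSO replicate 1 the medians were 0.26 for the ligands and 0.15 for the receptors, and with a minimum value of 50 the receptor median was 0.043. With library totals made equal the medians of ligands, receptors and all tested genes were 0.50, 0.19 and 0.10, and all tested genes then split into 2145 higher and 1042 lower, in place of 1602 and 1846. The count of all called genes was 2078 without DMSO replicate 2 and 2287 without TMP269 replicate 1, in place of 3448, while the count of called members stayed between 12 and 13 without any 1 of the 4 libraries.

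**Figure D1:**
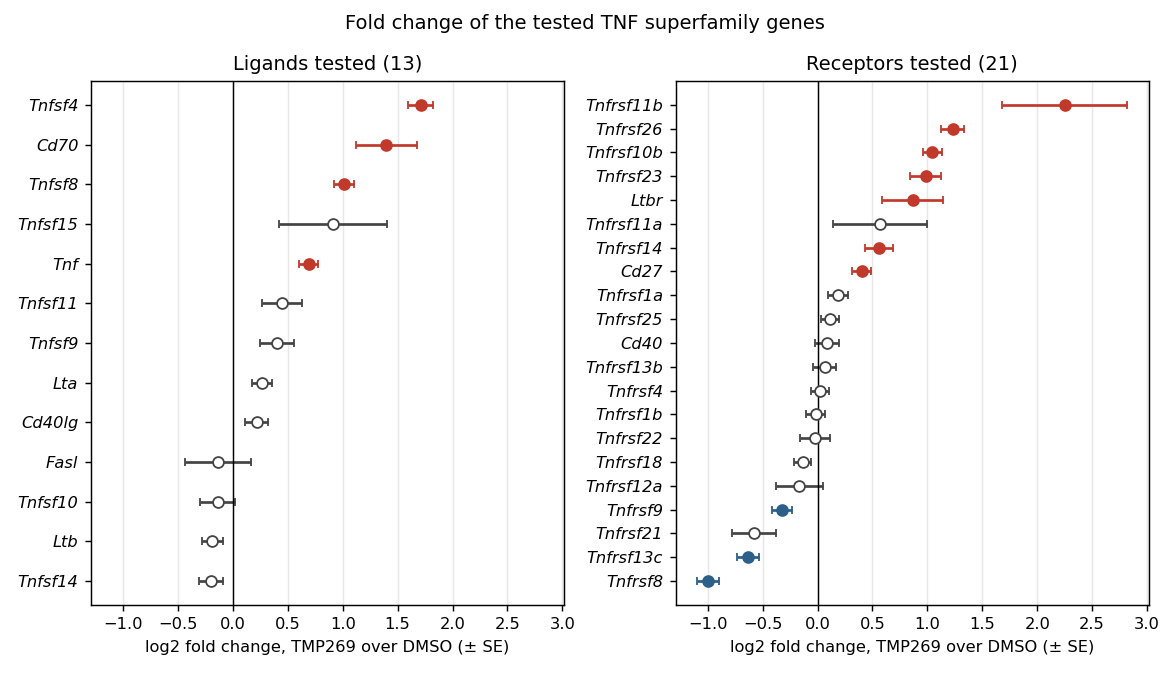
Log2 fold change of TMP269 over DMSO for the tested members, ligands on the left and receptors on the right. Points carry limma's moderated standard errors (2 libraries per group). Filled points were called (red higher, blue lower) and open points were not. The 4 called ligands lie to the right of 0, whereas called receptors lie on both sides, between -0.998 for Tnfrsf8 and 2.25 for Tnfrsf11b.

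The sequence just before the annotated start is shown for 3 called members, Tnf, Tnfrsf8 and Tnfrsf13c, so that the letters next to 1 gene that rose and 2 that fell can be read. They were chosen after their values were seen, among the 9 called members with a RefSeq window, and each holds at least 1 of the motifs below. The windows of the other called members that rose (Cd27, Ltbr, Tnfrsf14, Tnfrsf23 and Tnfsf8) held no match to any motif searched. Those of Tnfrsf9, which fell, held matches. However, the windows of Cd27, Tnfrsf14, Tnfrsf23 and Tnfsf8 reach into the annotated span of the gene. So does the Tnfrsf9 window that held kappaB and AP-1 matches. On GRCm38.p6, a later build than the mm9 of the submitters' notes, each printed sequence covers 250 bases upstream of the RefSeq start. All 3 are given 5' to 3' on the minus strand. They are chr17:35202008-35202257 for Tnf, chr4:145315165-145315414 for Tnfrsf8 and chr15:82224381-82224630 for Tnfrsf13c. Capitals mark matches, on either strand, to the kappaB motif, the MEF2 motif, the AP-1 motif TGANTCA or the NFAT core TGGAAA.
Tnf: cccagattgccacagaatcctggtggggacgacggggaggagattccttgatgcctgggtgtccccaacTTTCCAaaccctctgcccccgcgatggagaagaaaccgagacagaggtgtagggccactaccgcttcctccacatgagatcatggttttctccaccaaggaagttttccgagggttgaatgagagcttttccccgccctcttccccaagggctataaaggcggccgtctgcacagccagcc
Tnfrsf8: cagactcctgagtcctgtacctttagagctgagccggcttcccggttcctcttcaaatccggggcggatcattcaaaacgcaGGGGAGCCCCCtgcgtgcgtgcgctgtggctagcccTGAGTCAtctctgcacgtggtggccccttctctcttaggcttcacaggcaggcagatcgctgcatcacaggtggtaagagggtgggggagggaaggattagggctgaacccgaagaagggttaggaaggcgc
Tnfrsf13c: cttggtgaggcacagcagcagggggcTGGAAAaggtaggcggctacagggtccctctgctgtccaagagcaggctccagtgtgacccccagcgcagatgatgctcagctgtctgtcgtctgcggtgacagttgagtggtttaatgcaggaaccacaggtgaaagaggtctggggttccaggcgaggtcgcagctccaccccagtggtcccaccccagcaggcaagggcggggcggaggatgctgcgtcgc
In Tnfrsf8, which fell, the capitals are 2 overlapping kappaB matches, from 168 to 158 bases before the start, and 1 AP-1 match from 132 to 126 bases before it. In Tnf, which rose, and in Tnfrsf13c, which fell, they are 1 match each to TGGAAA, starting 181 and 224 bases before the start. For NFAT only TGGAAA was searched. The shorter run GGAAA, which the Tnf window also holds elsewhere on the other strand, was not searched and stays in lower case. Over 34 windows of the 30 members listed there, 4 held a kappaB match, 5 an AP-1 match, 3 a MEF2 match, 7 an NFAT core match and 2 a p53 half-site. Among all 32851 such windows the shares were 7.25% for kappaB, 6.75% for AP-1, 2.92% for MEF2, 18.6% for the NFAT core and 7.13% for the p53 half-site. Windows end at 250 bases, and a match is a run of letters and no evidence of binding.

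Among the ligands, Tnfsf4 rose most. It encodes OX40 ligand, which costimulates T cells through OX40 and is best known from antigen-presenting cells. Tnfsf4 was at 595 and 595 normalised reads in the TMP269 libraries, against 179 and 183 in the DMSO libraries. Normalised values of the same group lay close together, and the groups were far apart. The log2 fold change was 1.71 ± 0.12, a 3.27-fold rise (limma adjusted p = 1.27e-04). Leaving out any 1 library kept the log2 fold change between 1.69 and 1.73.

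Cd70 encodes the ligand of CD27 and is induced on activated lymphocytes. Its values were 58.9 and 54.1 normalised reads with TMP269, against 18.9 and 22.9 with DMSO. Both TMP269 libraries lay above both DMSO libraries at these low levels, at a log2 fold change of 1.398 ± 0.278 (2.63-fold, limma adjusted p = 0.0076). Tnfsf8 encodes CD30 ligand. Its transcripts stood at 2607 and 2413 normalised reads in TMP269 libraries, against 1332 and 1163 in DMSO libraries. The groups did not overlap, and the log2 fold change was 1.01 ± 0.09 (limma adjusted p = 3.31e-04).

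Tnf encodes the founding cytokine of the family, an inflammatory mediator made by activated T cells and macrophages. It reached 2719 and 2851 normalised reads with TMP269, against 1631 and 1824 with DMSO. Again the groups were separate, and Tnf rose 1.61-fold (log2 fold change 0.69 ± 0.09, limma adjusted p = 0.00111). The calls of Tnfsf4, Cd70, Tnfsf8 and Tnf each held under all 13 alternatives run.

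**Figure D2:**
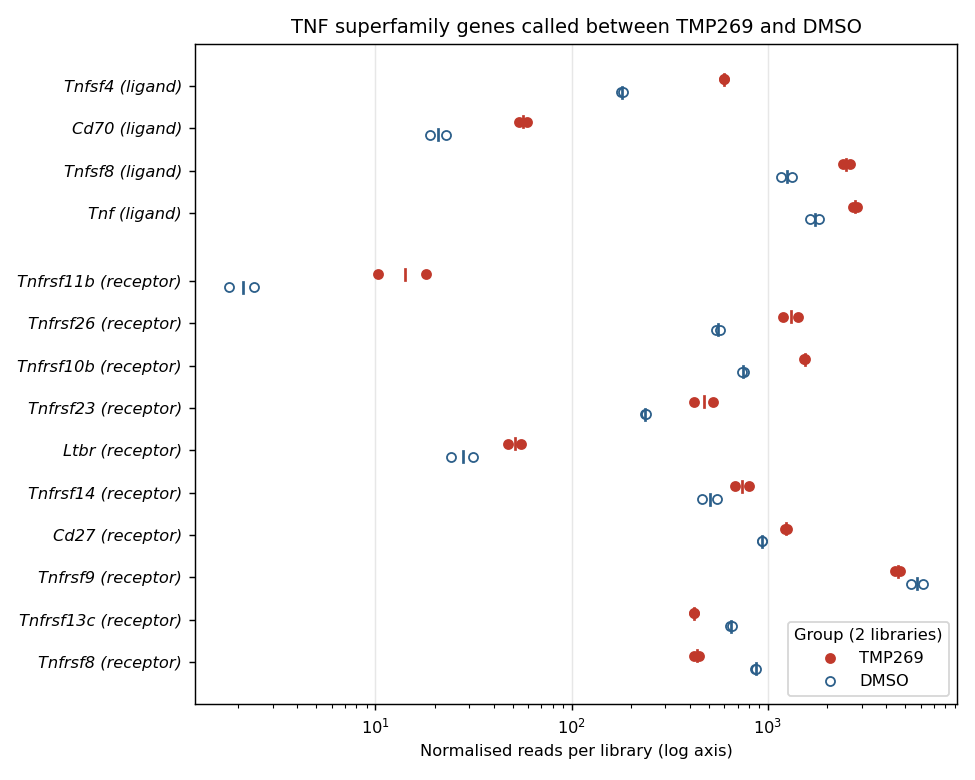
Normalised reads per library (log axis) of the 14 called members, 4 ligands above and 10 receptors below. Filled red points are the TMP269 libraries, open blue points the DMSO libraries, and vertical ticks the mean of each group. TMP269 and DMSO points are separate in each row, for example in Tnfrsf11b at 10.3 and 18.05 with TMP269 and 1.7995 and 2.41 with DMSO.

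The other 9 tested ligands were not called. Lta encodes lymphotoxin alpha, a soluble or membrane-bound relative of TNF, and stood at 13383 and 12317 normalised reads with TMP269 and 11189.6 and 10199 with DMSO. The groups did not overlap, but the change missed the threshold (log2 fold change 0.27 ± 0.09, limma adjusted p = 0.0605). It passed without DMSO replicate 1 (0.0396), in DESeq2 (0.0253) and with equal totals (0.0337), within a range of 0.0253 to 0.376 over alternatives. Ltb encodes the membrane partner of lymphotoxin alpha. It had 5401 and 5897 normalised reads with TMP269 and 6014 and 6854 with DMSO (log2 fold change -0.19 ± 0.09, limma adjusted p = 0.164).

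Tnfsf9, the gene of 4-1BB ligand, was at 418 and 514 normalised reads with TMP269 and at 310.4 and 397 with DMSO. Its log2 fold change of 0.40 ± 0.15 was not called (limma adjusted p = 0.0863), but it passed without DMSO replicate 2 (0.0358), without TMP269 replicate 1 (0.0215) and with equal totals (0.0418), in a range up to 0.348. Cd40lg encodes CD40 ligand, through which helper T cells activate B cells and macrophages. It stood at 1305 and 1185 with TMP269 against 997 and 1151 with DMSO (log2 fold change 0.22 ± 0.10, limma adjusted p = 0.142). It passed with equal totals (0.0464) and with equal totals leaving out Rn45s (0.0476), in a range up to 0.514. Tnfsf11, the gene of RANK ligand, was at 157 and 172 with TMP269 against 105 and 137 with DMSO (log2 fold change 0.45 ± 0.18, limma adjusted p = 0.103).

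The ligand genes for DR5, FAS and DR3 did not pass the test, nor did that of LIGHT. Tnfsf10 encodes TRAIL and was at 131 and 128 normalised reads with TMP269 and 142 and 144 with DMSO (log2 fold change -0.14 ± 0.16). Fasl, the ligand through which cytotoxic lymphocytes engage FAS, was at 29.97 and 45.6 with TMP269 against 45.9 and 36.2 with DMSO, and the groups overlapped. Tnfsf14, which encodes LIGHT, was at 495 and 432 with TMP269 against 533 and 528 with DMSO (log2 fold change -0.20 ± 0.11, limma adjusted p = 0.216). Tnfsf15, the gene of the DR3 ligand TL1A, had 11.4 and 24.7 with TMP269 against 9.897 and 7.24 with DMSO (log2 fold change 0.91 ± 0.49, limma adjusted p = 0.192). The ratio of its summed reads, corrected for library size, was 2.09 (95% exact interval 1.15 to 3.96, counting error only). Tnfsf15 entered the test only through the TMP269 libraries, so this interval is no separate support for a rise.

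Among receptors, the TRAIL receptor gene Tnfrsf10b rose together with Tnfrsf26 and Tnfrsf23, which lie in a tandem group. Tnfrsf10b encodes DR5, the death-domain receptor of TRAIL in the mouse and a known target gene of p53. It was at 1527 and 1551 normalised reads in TMP269 libraries, against 757 and 733 in DMSO libraries. Spread within each group was small beside the gap, and the log2 fold change was 1.05 ± 0.08 (2.06-fold, limma adjusted p = 1.65e-04).

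Tnfrsf26, Tnfrsf22 and Tnfrsf23 form a rodent group of related receptors, and the products of Tnfrsf22 and Tnfrsf23 are known as decoys of TRAIL. Tnfrsf26 had 1194 and 1419 normalised reads with TMP269, against 542 and 568 with DMSO, with no overlap (log2 fold change 1.23 ± 0.11, limma adjusted p = 2.44e-04). Tnfrsf23 had 421 and 523 with TMP269 against 235 and 239 with DMSO, also without overlap (log2 fold change 0.98 ± 0.14, limma adjusted p = 0.00183). Tnfrsf22 was at 244 and 225 with TMP269 against 242 and 234 with DMSO, so its groups overlapped (log2 fold change -0.02 ± 0.13, limma adjusted p = 0.916), with a small positive value of 0.082 under equal totals. These related genes stand side by side in the genome, and the sources used here do not say how reads matching several of them were counted, so their separate values are uncertain.

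The receptor genes Tnfrsf14 and Ltbr also rose. Tnfrsf14 encodes HVEM, which binds LIGHT and the inhibitory receptor BTLA. It was at 801 and 681 normalised reads with TMP269, against 549 and 458 with DMSO, and the groups did not overlap (log2 fold change 0.56 ± 0.13, limma adjusted p = 0.0129). The call was lost without DMSO replicate 2 (0.0575, the highest over alternatives, with 0.00143 the lowest). Ltbr encodes the lymphotoxin beta receptor, best known from stromal and myeloid cells. Its low values of 47.5 and 55.1 normalised reads with TMP269 lay above 24.3 and 31.4 with DMSO (log2 fold change 0.87 ± 0.28, limma adjusted p = 0.0473). The Ltbr call was lost without DMSO replicate 1 (0.126), DMSO replicate 2 (0.0528), TMP269 replicate 1 (0.108) or TMP269 replicate 2 (0.22), in DESeq2 (0.186) and with every gene above 0 tested (0.0801), in a range of 0.0377 to 0.22.

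Cd27 encodes a costimulator of naive and memory T cells. It was at 1252 and 1215 normalised reads with TMP269, against 930.4 and 937 with DMSO. Both TMP269 libraries lay above both DMSO libraries, which were close to each other, and Cd27 rose 1.32-fold (log2 fold change 0.40 ± 0.08, limma adjusted p = 0.00906). Tnfrsf11b encodes osteoprotegerin, a secreted decoy of RANK ligand. It was read 10 and 19 times in the TMP269 libraries, against 2 and 2 times in the DMSO libraries. The ratio of summed reads, corrected for library size, was 6.96 with a 95% exact interval of 2.45 to 27.3, which covers counting error only. Tnfrsf11b reached the test only through the TMP269 libraries, where it was high, so its call and interval are no separate support for a rise. Its call (log2 fold change 2.25 ± 0.57, limma adjusted p = 0.0194) did not hold without TMP269 replicate 1 (0.0539) or TMP269 replicate 2 (0.217), in a range from 0.0167 to 0.217.

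Tnfrsf8 showed the deepest fall of the tested members. It encodes CD30, a TRAF-binding receptor of activated lymphocytes and a marker of some lymphomas. Its values were 445 and 419 normalised reads with TMP269, against 856 and 872 with DMSO. The levels with TMP269 were 0.501-fold those with DMSO, with separate groups (log2 fold change -0.998 ± 0.098, limma adjusted p = 4.19e-04). Tnfrsf9 encodes 4-1BB, a costimulator induced by activation, and had 4437 and 4714 with TMP269 against 6145 and 5329 with DMSO. The groups did not overlap and Tnfrsf9 fell (log2 fold change -0.32 ± 0.09, limma adjusted p = 0.0297). That call was lost without DMSO replicate 1 (0.117), without TMP269 replicate 1 (0.145), with equal totals (0.149) and when Rn45s was also left out (0.118), in a range of 0.0145 to 0.149.

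Tnfrsf13c encodes the BAFF receptor, a survival receptor known mainly from B cells. It was at 418 and 419.8 normalised reads with TMP269, against 641 and 656 with DMSO. The groups did not overlap and the log2 fold change was -0.63 ± 0.10 (0.646-fold, limma adjusted p = 0.00311). Of 11 tested B cell markers 0 rose and 7 fell, a called share of 63.6% beside 27.5% of all tested genes. Their median log2 fold change was -0.52. They summed to 2566 and 2593 normalised reads with TMP269 against 4226 and 4455 with DMSO. No marker of the list was at 0 in all libraries. Ms4a1, the gene of the B cell surface protein CD20, was at 296 and 301 normalised reads with TMP269, against 492 and 683 with DMSO. The groups did not overlap and Ms4a1 fell, as did Fcer2a and Cd22 (log2 fold change -0.96, -1.68 and -1.14), whereas Cd79b, Blnk, Blk and Vpreb3 were not called. Fewer B cells and less of these transcripts per cell cannot be told apart in bulk RNA, and the part of B cells in the change of Tnfrsf13c was not tested.

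Other receptors known from B cells were not called. Tnfrsf13b, the gene of the BAFF and APRIL receptor TACI, was at 703 and 680.04 normalised reads with TMP269 and 704 and 621 with DMSO. Cd40, the receptor of CD40 ligand, was at 585 and 636 with TMP269 against 539 and 612 with DMSO. Both overlapped between groups and were not called, at a log2 fold change of 0.06 ± 0.10 for Tnfrsf13b (limma adjusted p = 0.67) and of 0.09 ± 0.11 for Cd40 (0.58). The plasma cell receptor gene Tnfrsf17 was read once in 1 DMSO library and 0 times in the other libraries, TMP269 libraries included. Tnfsf13b, the gene of BAFF itself, was read 3 and 5 times with TMP269 and 11 and 6 times with DMSO and was not tested.

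**Figure D3:**
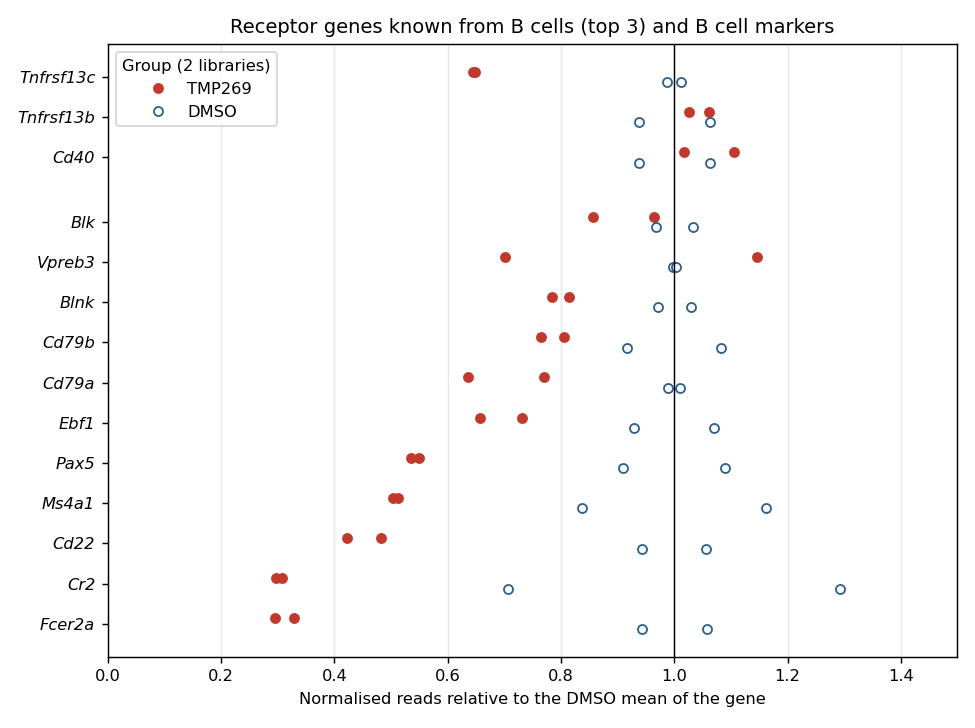
Normalised reads of each library relative to the mean of the DMSO libraries of that gene, for 3 receptor genes known from B cells and, below them, the 11 B cell markers. Filled red points are TMP269 libraries and open blue points DMSO libraries, and the vertical line marks 1. Tnfrsf13c lies left of its DMSO libraries as Ms4a1, Cd22 and Fcer2a do, while Tnfrsf13b and Cd40 overlap with theirs.

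The other receptors were not called. Tnfrsf4, the gene of OX40, had 11790.2 and 11925 normalised reads with TMP269 and 11557 and 11810.5 with DMSO. Its log2 fold change was 0.02 ± 0.08 and the groups overlapped. Tnfrsf18 encodes GITR, a costimulator high on regulatory T cells, and was at 7952 and 8345 with TMP269 against 9129 and 8771 with DMSO (log2 fold change -0.14 ± 0.08, limma adjusted p = 0.238). The TNF receptor gene Tnfrsf1a had 743 and 761 with TMP269 against 680.2 and 640.5 with DMSO. Tnfrsf1b had 2464 and 2703 with TMP269 against 2524 and 2703 with DMSO. TNFR1, from Tnfrsf1a, carries a death domain, and TNFR2, from Tnfrsf1b, does not. The log2 fold change was 0.19 ± 0.09 for Tnfrsf1a (limma adjusted p = 0.167) and -0.02 ± 0.08 for Tnfrsf1b (0.896).

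Tnfrsf25 encodes DR3, the death-domain receptor of TL1A, and was at 1495 and 1535 normalised reads with TMP269 and 1432 and 1369 with DMSO (log2 fold change 0.11 ± 0.08). Tnfrsf21, the gene of the death receptor DR6, was at 65.1 and 64.6 with TMP269 against 89.98 and 105 with DMSO, without overlap, yet missed the threshold (log2 fold change -0.58 ± 0.20, limma adjusted p = 0.0632). Tnfrsf12a, the TWEAK receptor gene, had overlapping groups at 66.2 and 81.7 with TMP269 against 88.2 and 77.2 with DMSO. Tnfrsf11a, the gene of RANK, was at 19.6 and 12.3 with TMP269 against 10.8 and 9.65 with DMSO (limma adjusted p = 0.352).

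Of the 6 members that did not reach the test, Tnfsf13 had 0 reads in all 4 libraries, which allows up to 3 reads per library. Tnfsf12 had 0 reads in both TMP269 libraries and 1 in each DMSO library, and Tnfsf18 had 1 read in TMP269 replicate 1, 0 in TMP269 replicate 2 and 1 in each DMSO library. Tnfrsf19 had 2 and 3 reads with TMP269 and 8 and 2 with DMSO, and Tnfsf13b and Tnfrsf17 are given above. In the RefSeq annotation of GRCm38.p6, Tnfsf12 and Tnfsf13 overlap the read-through gene Tnfsfm13, so reads of these genes could have been set aside as ambiguous, and their levels are uncertain. The same holds for Tnfrsf12a, Tnfrsf13b and Tnfrsf4, which overlap Hcfc1r1, Usp22 and Sdf4.

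Superfamily genes whose symbols the rule did not take added further receptors that rose. Fas, the gene of the death receptor of FASL and like Tnfrsf10b a known p53 target, was at 841 and 1005 normalised reads with TMP269, against 491 and 545 with DMSO. The groups were separate, and Fas rose 1.78-fold (log2 fold change 0.83 ± 0.12, limma adjusted p = 0.00183). Eda2r, a receptor gene of ectodysplasin, was at 26.9 and 33.2 with TMP269 against 6.298 and 2.41 with DMSO, and its read ratio was 6.51 (95% exact interval 3.21 to 14.9). That change was called (log2 fold change 2.63 ± 0.50, limma adjusted p = 0.00595), although both DMSO libraries were below the value of 10. Relt was not called (log2 fold change -0.10 ± 0.10). Eda and Ngfr were below the filter, at 0 to 2.699 normalised reads.

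Ligand genes and the genes of their receptors were then set side by side in 26 textbook pairings, of which 17 had both partners tested. In 1 pairing both rose (Cd70 with Cd27). In 1 pairing the ligand rose and the receptor fell (Tnfsf8 with Tnfrsf8). In 3 the ligand alone was called, namely Tnfsf4 with Tnfrsf4 and Tnf with either of its receptors. In 7 the receptor alone was called, among them Tnfrsf10b with Tnfsf10, Fas with Fasl, and Tnfrsf14 and Ltbr with Tnfsf14. In 5 pairings neither was called. Over all tested genes 27.5% were called, which is a share of genes and not of pairings. Tnfsf10 was not paired with Tnfrsf22 or Tnfrsf23, although their products are named above as decoys of TRAIL. The counts therefore depend on the pairings taken. Members appear in several pairings, and whether partners differ in their change was not tested.

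**Figure D4:**
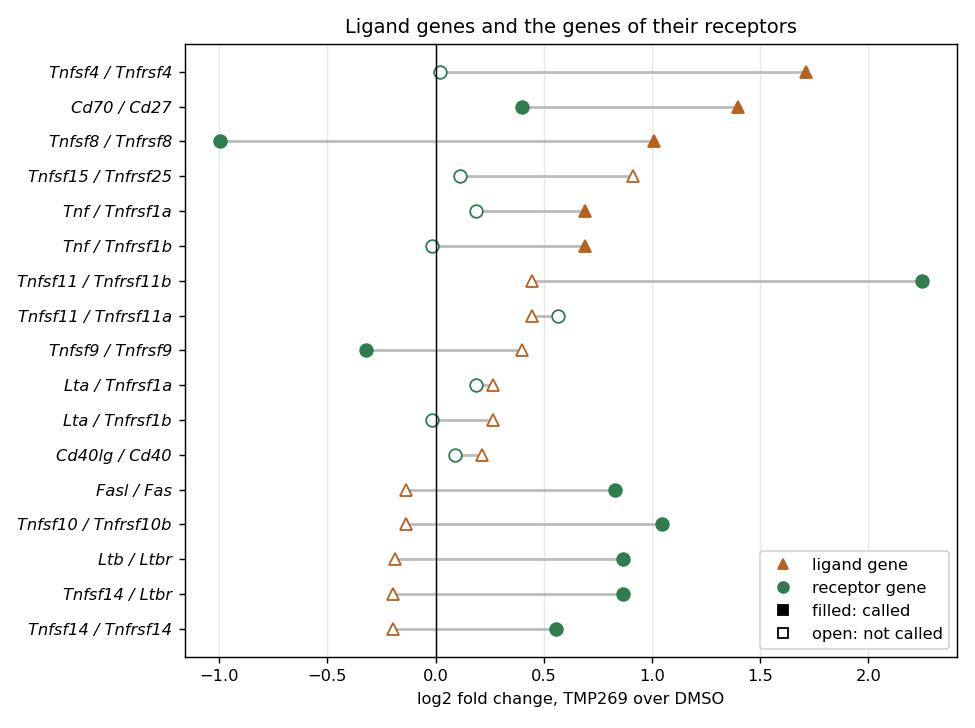
Log2 fold change of TMP269 over DMSO for 17 ligand and receptor pairings with both genes tested, triangles for the ligand gene and circles for the receptor gene, filled where called. Grey lines join partners. The longest distance among pairings with both genes called is that of Tnfsf8 (1.01) and Tnfrsf8 (-0.998), and the 5 lowest rows hold receptors that rose beside ligands that were not called.

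Many members are neighbours in the genome. In the RefSeq gene order of GRCm38.p6, 23 of the 40 members fall into 9 groups with no more than 1 other protein-coding gene between neighbours. Called and uncalled genes stood next to each other in most of these groups. Tnf was called between Ltb and Lta, Cd70 between Tnfsf9 and Tnfsf14, and Tnfsf8 beside Tnfsf15, while those neighbours were not called. Of those neighbours, Lta, Tnfsf9 and Tnfsf15 had positive log2 fold changes (0.27, 0.40 and 0.91). Ltb and Tnfsf14 had negative ones (-0.19 and -0.20). Whether called genes and their neighbours differ in their change was not tested. Tnfrsf8 fell beside Tnfrsf1b, which was not called. The group of Cd27, Ltbr and Tnfrsf1a held 2 called genes that rose, and that of Tnfrsf26, Tnfrsf22 and Tnfrsf23 also held 2.

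Genes that carry the signal of these receptors were described from lists. Of 15 NF-kappaB subunit and kinase genes, 9 rose and 0 fell, a called share of 60.0% beside 27.5% of all tested genes, with a median log2 fold change of 0.31. Rel, the gene of the subunit c-Rel, was at 1429 and 1458 normalised reads with TMP269, against 902 and 1036 with DMSO (log2 fold change 0.58 ± 0.09, limma adjusted p = 0.00345). Nfkbia, the gene of the inhibitor IkappaB alpha and itself an NF-kappaB target, was at 7022 and 7239 with TMP269 against 4604 and 5042 with DMSO. Rela also rose (log2 fold change 0.31 ± 0.07). Leaving out DMSO replicate 2, or TMP269 replicate 1, left 3 of these genes called, where the count over all genes fell to 2078 and 2287, in place of 3448. Without TMP269 replicate 2, 6 were called. Rela was not among the called genes without DMSO replicate 2, TMP269 replicate 1 or TMP269 replicate 2 (0.0625, 0.0573 and 0.0947, in a range from 0.00732).

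Among 24 genes listed as ubiquitin and other regulators of TNF receptor signalling, 7 rose and 1 fell (13 and 1 with equal totals), with a median log2 fold change of 0.17. The called share of 33.3% lay near the 27.5% of all tested genes called in either direction. By direction, 12.8% of all tested genes were called higher and 14.7% lower. Tnfaip3 encodes the deubiquitinase A20, a brake on NF-kappaB, and had 6070.3 and 6161 normalised reads with TMP269, against 4239.7 and 3989.9 with DMSO. The groups were separate (log2 fold change 0.57 ± 0.08, limma adjusted p = 0.00157). Its partner gene Tnip1 and N4bp1 rose too (log2 fold change 0.61 ± 0.08 and 0.69 ± 0.08). Tnfaip8, which is named for its induction by TNF and belongs to a family of lipid-binding proteins, fell (log2 fold change -0.41 ± 0.09, limma adjusted p = 0.00968), but not without TMP269 replicate 1 (0.0593, in a range from 0.00406). Without TMP269 replicate 2 the list had 4 genes higher and 2 lower.

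Of 7 TRAF genes, Traf1 alone was called, at 3693 and 3563 normalised reads with TMP269 against 3007 and 2778 with DMSO (log2 fold change 0.33 ± 0.08, limma adjusted p = 0.0163). Without DMSO replicate 2 (0.0813) or TMP269 replicate 1 (0.0916) it was not called, in a range from 0.00744, and 3 TRAF genes were called with equal totals. The called share was 14.3%. Of 10 genes of the death domain complex, 2 rose, a share of 20.0%. Neither list lay above the 27.5% of all tested genes called in either direction, of which 12.8% were higher and 14.7% lower. Cflar encodes c-FLIP, an inhibitor of caspase-8 at death receptors, and was at 7803 and 7785 with TMP269 against 4592 and 4673 with DMSO (log2 fold change 0.75 ± 0.08, limma adjusted p = 4.65e-04). Mlkl, the effector of necroptosis, was at 919.9 and 814 with TMP269 against 583 and 546 with DMSO (log2 fold change 0.62 ± 0.10). The adaptor gene Fadd and the protease gene Casp8 were not called (log2 fold change -0.21 ± 0.10 and -0.07 ± 0.09). Of 5 genes of ligand shedding 1 was called, a share of 20.0% that also lay below that of all tested genes in either direction. It was Rhbdf2, whose product brings the TNF-cleaving protease ADAM17 to the surface. Rhbdf2 was at 736 and 704 with TMP269 against 481 and 411 with DMSO (log2 fold change 0.69 ± 0.11), while Adam17 was not called (-0.01 ± 0.08).

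Markers of other cells that could carry superfamily genes were measured beside them. Of 5 regulatory T cell markers, 3 rose (Ikzf2, Ikzf4 and Foxp3) and 1 fell (Ctla4), a called share of 80.0% beside 27.5% of all tested genes. Foxp3, which encodes the defining factor of these cells, was at 441 and 450.2 normalised reads with TMP269 and 354.5 and 286 with DMSO, while the costimulator genes Tnfrsf18 and Tnfrsf4 were not called. The counts higher and lower were 1 and 1 without DMSO replicate 2 and 2 and 0 without TMP269 replicate 1. Of 11 myeloid and dendritic cell markers, 5 were tested, Cd68 rose (263 and 299 with TMP269 against 97.2 and 83.2 with DMSO, with 2 genes called higher without DMSO replicate 1) and Flt3 fell (69.3 and 57.9 with TMP269 against 214 and 303 with DMSO). The other 3 tested genes of that list were not called. The list summed to 1817 and 1991 normalised reads with TMP269 and 1903 and 2123 with DMSO. Emr1, Lyz2, Cd14 and Fcgr1 stood at 0 to 14.2 in every library. Together with Cd68 and Flt3 they made up the smaller part of each sum, and the rest came from genes not named here. Markers of natural killer cells summed to 35.1 and 39.9 with TMP269 against 91.8 and 117 with DMSO. Of the 2 tested, Klrk1 fell (log2 fold change -1.94). The other went the opposite way (0.34), without overlap between groups, and was not called. Ncr1 had at most 1 read. Of 4 plasma cell markers Xbp1 fell, and they summed to 2636 and 2997 with TMP269 against 3687 and 3902 with DMSO. Markers of CD8 T cells summed to 315 and 427 with TMP269 against 299 and 391 with DMSO, and those of stromal and endothelial cells to 789.7 and 1050.5 with TMP269 against 960.1 and 987 with DMSO, with 0 calls in both lists. Of 6 T cell markers Cd5 rose (log2 fold change 0.58 ± 0.09). Neutrophil markers summed to 0 and 0.9498 with TMP269 against 2.699 and 0 with DMSO. The part of such cells in the changes of the members was not tested.

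**Figure D5:**
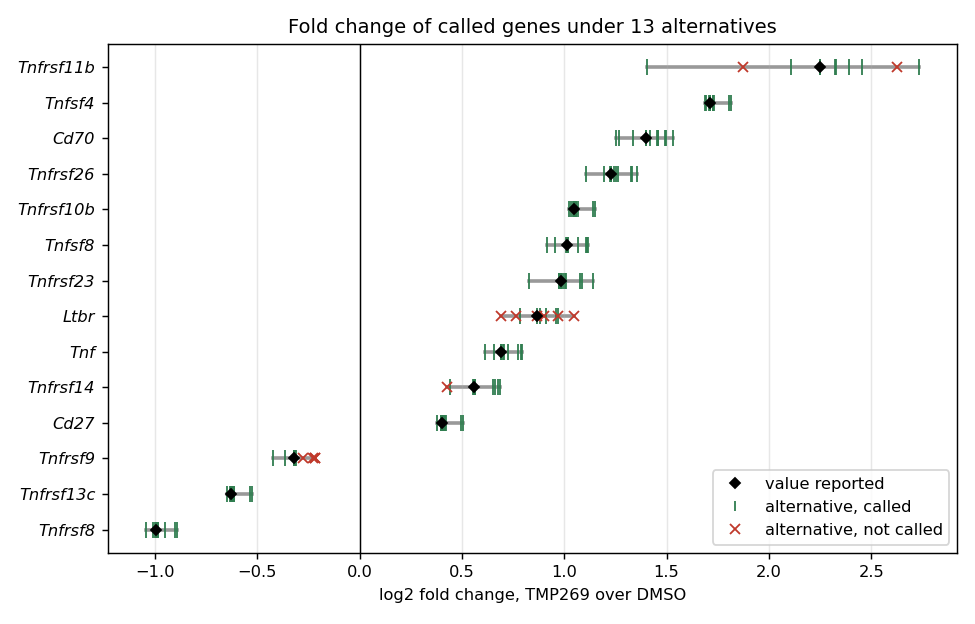
Log2 fold change of the 14 called members as reported (black diamonds) and under 13 alternatives of scaling, test, filter, pseudocount, replicate term and left-out library (green ticks where called, red crosses where not). In 10 genes the call held throughout, and crosses appear for Ltbr, Tnfrsf11b, Tnfrsf14 and Tnfrsf9. No value crosses 0.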

How the data were processed

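RNA was measured by sequencing of polyadenylated RNA in 2 TMP269 and 2 DMSO libraries. The deposited values are a normalised signal, each library's reads divided by 1 size factor by the authors (0.967 and 1.05 for TMP269, 1.11 and 0.829 for DMSO replicates 1 and 2). Multiplying by these factors returned whole reads, within 1e-06, for 100% of values. The submitters' processing notes list, with no role, build mm9 and CASAVA 1.4, HTSeq, DESeq2, TopHat2 2.1.0 and Bowtie2. The sources used here give neither annotation nor strand setting, so overlapping genes are uncertain.

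Tests used limma 3.58.1 (R 4.3.3) on log2(value + 1), two-sided, with a trended prior variance and no covariate. The code was tried on simulated counts with the same dispersion for every gene. Real genes and replicates vary in more ways, so that trial does not bear on the p-values given here. Alternatives were edgeR 4.0.16 and DESeq2 1.42.0 on the recovered reads, which called 3406 and 2866 genes, other scalings, pseudocounts and filters, the replicate number as a block and each library left out. Ranges of adjusted p given beside a gene leave out the replicate block. Equal totals without Rn45s was chosen after seeing the data. With 1 library left out, a lone library is assumed to vary like the others. An exact test of 2 against 2 values cannot pass 0.05, so p-values rest on the spread shared across genes. Whether the replicates were separate animals or cultures is not in the labels, so the spread behind each p-value may be technical only. Replicates differed by more than sampling noise (chi-square per degree of freedom 12.02 for TMP269 and 22.8 for DMSO). Genes with many reads weigh most in these figures. Rn45s was not left out, at 0.836% and 2.20% of the reads in DMSO replicates 1 and 2. The figures are therefore not the spread of a typical gene.

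The members, lists and tests were chosen with earlier results of these data known. Called members and their ligand or receptor partners are given by library. From each further list up to 3 called genes per direction were named, by the smallest p, and further list members were chosen after their values were seen. Promoter sequences were matched by symbol. A pair of marker genes is not reported here and was left out of the marker lists, their counts and sums.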

Additional observations from a re-analysis of the deposited data

How the results depend on the processing

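Of the 14 called members, 10 kept direction and call under all 13 alternatives; Ltbr, Tnfrsf11b, Tnfrsf14 and Tnfrsf9 lost the call under at least 1. Low genes had no value under some alternatives (Tnfrsf11b and Ltbr with a minimum value of 50, Tnfrsf11b in DESeq2). Called members numbered 14 with edgeR, 13 with DESeq2, 16 with equal totals, 12 with a minimum value of 50 and 12 to 13 without any 1 library. Called receptors numbered 7 to 8 and called ligands 4 to 5 without any 1 library. With equal totals, with or without Rn45s, 7 ligands were called in place of 4. All called genes numbered 2078 to 3675 without any 1 library. With the replicate number as a block, 6360 genes, 21 members and 9 ligands were called. Of those ligands 8 were higher and 1, Ltb, was lower (limma adjusted p = 0.00747). Deviations of same-numbered libraries correlated at 0.37, but 2 pairs do not establish a pairing. Signs turned in 6 genes that were not called: with equal totals, Tnfrsf1b was at 0.087, Tnfrsf22 at 0.082 and Relt at 0.0053, and with Rn45s also left out Tnfrsf1b was at 0.078 and Tnfrsf22 at 0.073. Without any 1 library, log2 fold changes ranged from -0.43 to 0.16 for Fasl, -0.0032 to 0.18 for Cd40, -0.025 to 0.15 for Tnfrsf13b, -0.084 to 0.049 for Tnfrsf1b and -0.080 to 0.035 for Tnfrsf22. The causes were not tested. Depth limits members with few reads, such as Tnfsf15, Tnfrsf11a and Tnfrsf11b.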
